A study of Mus musculus with 6 samples.

Results

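The comparison set the uterus at 18 and 24 h after a progesterone injection against the uterus at 12 and 15 h, using 4 of the 6 arrays of a time course. The arrays were assigned to the sides by their labelled time, with 2 on each side. The comparison and the gene lists were chosen with earlier results of these data known. RNA of the whole uterus was hybridized to Affymetrix arrays, which report 1 log2 value per probe set. The females were 129/SvImJ wildtype mice of 10 to 16 weeks, whose ovaries had been removed 14 days earlier. Every animal of these 4 groups received 0.2 mg progesterone in 0.1 mL sesame oil under the skin, and was killed 12, 15, 18 or 24 h later. Each array held a pool of 8 uterine horns from 4 mice, so the spread between animals was not measured. There was 1 array per time and no oil-injected group among the arrays, so effects of time of day, of the injection or of the oil cannot be told apart from those of the hormone.

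Removal of the ovaries takes away the main source of estrogen and progesterone, and the uterus then regresses. Progesterone acts through its nuclear receptor in the epithelium, the stroma and the muscle of the uterus, and it prepares the stroma for decidualization and limits epithelial growth under estrogen. Secretory epithelium needs a large folding capacity in the endoplasmic reticulum, the compartment where secreted and membrane proteins are folded, and genes for that capacity are switched together by the unfolded protein response. Stromal cells make the collagens and proteoglycans of the matrix, and smooth muscle makes the contractile wall.

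The late arrays were lower for genes of protein folding, ribosome production and amino acid supply, and higher for collagens, proteoglycans and genes of smooth muscle. Cyclin G1 (Ccng1), the secreted folding factor Manf and the mitochondrial one-carbon enzyme Mthfd2 each fell by about 1 on the log2 scale. Genes that were higher late differed less, and none passed the test as fitted here. Of 7571 probe sets tested with limma (adjusted p under 0.05), 4 fell, or 0.0528%, and 0 rose, or 0%. At an unadjusted p under 0.05, 868 were lower and 287 higher. At an adjusted p under 0.1 there were 57 lower and 13 higher. The test treats the neighbouring times of a side as replicates, so its spread includes any change inside a side.

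A description by size and order was added to the test. A probe set was separated when both late values lay on the same side of both earlier values, which covers all 4 pairs of arrays. Values under the 40th percentile of the table (6.59 on the log2 scale) were set to that floor. Among 7528 probe sets with a value on each of the 4 arrays, 61 were at least 1.5-fold lower and separated (0.81%), and 23 were at least 1.5-fold higher and separated (0.306%). At any size, 2586 were separated lower (34.4%) and 974 higher (12.9%). Counts of list members below are to be read against these shares. The median difference of all probe sets analysed was -0.05, and the balance of directions depended on the scaling. As deposited, 27.4% of the 84 probe sets past 1.5-fold and separated were higher. Of the probe sets past it after rescaling, 47.4% were higher with quantile normalization and 48.7% with each array centred on its median. Those sets shared 63 and 62 members with the 84. The count of higher probe sets was 11 without the 24 h array, 49 without the 15 h array, 67 without the 18 h array and 21 without the 12 h array. The count of lower ones was 92, 90, 83 and 53 in the same order. Arrays of the same side were closer to each other than arrays of different sides. A difference of at least 1.5-fold in either direction was seen in 38 probe sets between 12 and 15 h and 63 when 18 h was set against 24 h, compared with 94 to 238 between the sides. The array medians were 7.13 to 7.22, and the 6 actin and GAPDH control probe sets of the standard type differed by -0.05 to 0.10 between the sides. Other controls were separated lower, among them BioB-5 and BioDn-5 at -0.13 each, URA3 at -0.20 and MURINE_b1 at -0.29. Of the PyruCarb controls, 5 and MA were separated higher at 0.20 each, and 3 and MB were not separated.

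**Figure D1:**
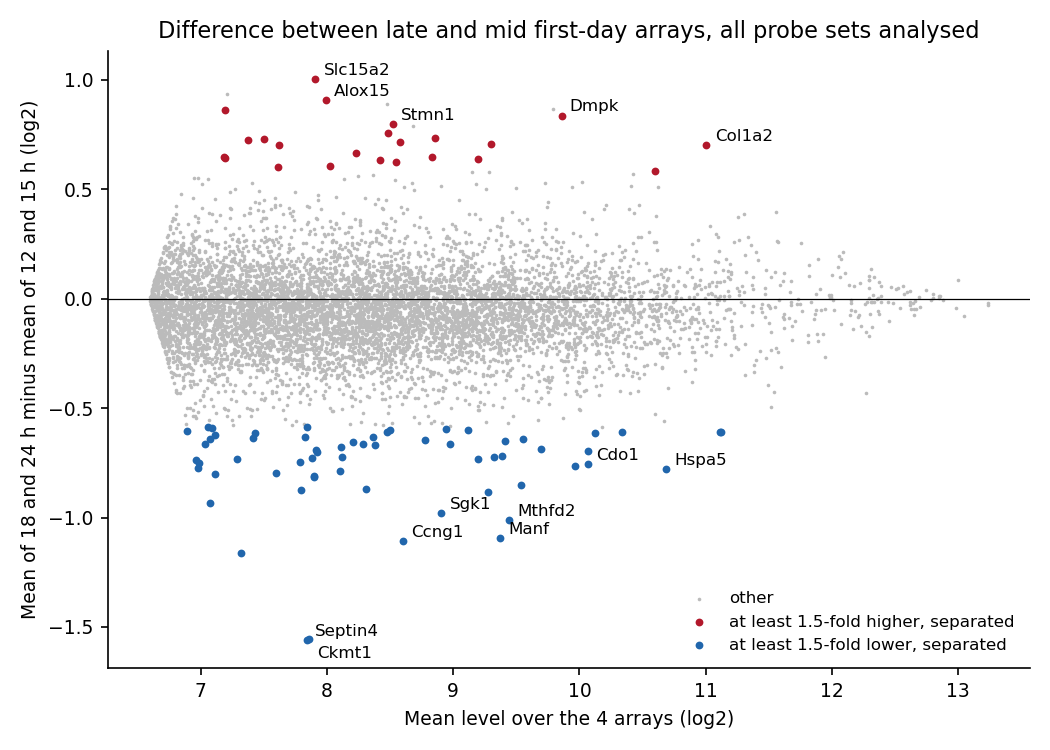
Each point is 1 probe set, placed by its mean log2 level over the 4 arrays (horizontal axis) and by the mean of 18 and 24 h minus the mean of 12 and 15 h (vertical axis, log2). Blue points are the 61 at least 1.5-fold lower and separated, red points the 23 at least 1.5-fold higher and separated; the lower ones reach -1.56 (Septin4 and Ckmt1) and the highest red point is Slc15a2, 2.01-fold higher.

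In the probe sets selected above, the largest steps lay mostly at 15 to 18 h in the lower ones and were spread later in the higher ones. That difference was not tested. Of the 61 lower probe sets, 50 had their largest step from 15 to 18 h, 8 had it from 12 to 15 h, 3 from 18 to 24 h, and 28 were lower at every step. Of the 23 higher probe sets, 10 had their largest step from 15 to 18 h, 11 had it from 18 to 24 h, 2 from 12 to 15 h, and 18 were higher at every step. The steps span 3, 3 and 6 h, so step sizes are not rates. Both late values had to lie beyond both earlier ones, so by the rule each of these probe sets stepped its way from 15 to 18 h. The counts by step therefore follow in part from the selection and do not date the changes. Near the threshold, the smallest difference inside was -0.59 (a probe set of Fkbp4) and 0.59 (lumican, Lum), and the nearest separated ones outside were the tubulin gene Tubb2a at -0.58 and the microfibril gene Mfap2 at 0.58.

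Endoplasmic reticulum chaperones and other genes of the unfolded protein response formed the list with the most members lower by 1.5-fold. Of 28 genes on the array, 23 passed the filter on low values. Of these, 8 were at least 1.5-fold lower and separated, 19 were separated lower at any size and 0 were separated higher. The shares of all probe sets were 0.81%, 34.4% and 12.9% in the same order. Manf fell by the test, and no other member did. The median difference of the list was -0.42, against -0.05 for all probe sets, and it was -0.37 after quantile normalization. The count at 1.5-fold was 6 without the 12 h array, 11 without the 15 h array and 8 without either late array.

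Some of these genes carry a known control element in their promoters, shown here because it is a feature of sequence that the choice of arrays did not use. The endoplasmic reticulum stress response element is CCAAT, 9 free bases and CCACG, bound by NF-Y and by ATF6 or XBP1. RefSeq promoter windows (GRCm38.p6, from 250 bases before to 50 after the start, both strands searched) were matched for 7 of the 8 genes at least 1.5-fold lower, all but Manf. The element was in 5 of these 7 (71.4%) and in 6 of 22 genes of the whole list with a window (27.3%). It was in 10 of 4679 analysed genes with a window (0.214%) and in 37 of 27025 genes with a window (0.137%). Among all genes at least 1.5-fold lower it was in 5 of 44 (11.4%), and these were the same 5 genes of the list. Among those at least 1.5-fold higher it was in 0 of 15. Another motif, ERSE-II (ATTGG, 1 free base and CCACG), was searched as well. That motif was in 1 of the 7, Dnajb11, and in 2 of the 22, the other being Herpud1. Its share of analysed genes with a window was 7 of 4679 (0.15%). The list holds textbook targets of the response, so the share describes the list as chosen. The stretches below run 5′ to 3′ along the gene's strand, with the fixed bases of the element in capitals and 40 bases on each side. They are Hspa5 at chr2:34771985-34772083 (plus strand), Pdia6 at chr12:17266451-17266549 (plus), Dnajc3 at chr14:118937787-118937885 (plus), Canx at chr11:50325760-50325858 (minus) and Creld2 at chr15:88819480-88819578 (plus, with the element on the opposite strand).
Hspa5: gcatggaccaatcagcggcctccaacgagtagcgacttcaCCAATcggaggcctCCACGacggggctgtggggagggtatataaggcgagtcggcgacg
Pdia6: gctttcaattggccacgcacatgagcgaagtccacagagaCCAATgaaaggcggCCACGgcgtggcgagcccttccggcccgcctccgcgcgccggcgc
Dnajc3: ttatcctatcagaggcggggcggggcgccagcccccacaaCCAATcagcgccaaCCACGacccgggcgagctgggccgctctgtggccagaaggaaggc
Canx: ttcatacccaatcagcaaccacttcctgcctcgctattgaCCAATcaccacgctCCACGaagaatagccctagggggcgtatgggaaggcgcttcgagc
Creld2: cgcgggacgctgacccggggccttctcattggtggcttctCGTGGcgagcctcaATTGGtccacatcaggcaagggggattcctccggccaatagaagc

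The element began 65 bases before the start in Hspa5, 98 in Pdia6, 105 in Dnajc3, 145 in Canx and 126 in Creld2. Hspa5 encodes BiP, the main chaperone of the endoplasmic reticulum. Its levels, in the order 12, 15, 18 and 24 h used throughout, were 11.26, 10.90, 10.32 and 10.28. Both late values lay under both earlier ones, with a difference of -0.78 ± 0.12 (SE, n = 2 arrays per side) and an adjusted p of 0.0632 in limma. Manf, a secreted folding factor induced by the response read 10.04, 9.80, 8.86 and 8.79 at the same times. It fell by 1.09 ± 0.11 on the log2 scale, or 2.14-fold (adjusted p = 0.0215 in limma), with no overlap of the sides. The call was lost with no filter on low values (adjusted p = 0.299) and after quantile normalization (adjusted p = 0.0649).

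Creld2, another secreted factor of the response, read 8.94 and 8.55 at 12 and 15 h and 7.85 and 7.89 at 18 and 24 h. The difference was -0.87 ± 0.14 (adjusted p = 0.0632 in limma). The disulfide isomerase Pdia6 had 3 probe sets, which differed by -0.87, -0.85 and -0.77, and the co-chaperone Dnajc3 had 3 that differed by -0.80, -0.79 and -0.64. All 6 were separated. Canx, calnexin, which holds glycoproteins until they are folded, read 8.34, 8.27, 7.37 and 7.62 on one probe set and differed by -0.81. Its other probe set read 7.65, 7.37, 7.54 and 7.26 and was not separated, so the probe sets of Canx disagree. Selenos, which takes part in removal of misfolded proteins, differed by -0.69, and the BiP co-chaperone Dnajb11 by -0.61.

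The remaining members were lower by less or did not separate. Pdia4 differed by -0.53, Fkbp2 by -0.50, the HSP90 paralogue Hsp90b1 by -0.43 and Pdia3 by -0.42. The transcription factors of the response were lower by smaller amounts: Xbp1 differed by -0.38, Atf4 by -0.28 and Ddit3 by -0.25. Herpud1, P4hb, Sel1l and Ppib were not separated, with differences from -0.15 to 0.05. Hsp90b1, whose window holds the element at 2 places, read 11.97, 11.55, 11.40 and 11.26, so its largest step came between 12 and 15 h.

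Cytosolic and mitochondrial heat shock proteins were lower too, by less. All 15 analysed of 17 on the array were lower in the mean, and 11 were separated lower, against 34.4% of all probe sets. Of the 11, 2 were at least 1.5-fold lower (1 after either rescaling), and the median of the list was -0.22. Hsph1, a nucleotide exchange factor of HSP70, read 9.88, 9.48, 9.15 and 8.77, a step down at every time and a difference of -0.72 ± 0.16 (adjusted p = 0.119 in limma). Hsp90aa1, the inducible cytosolic HSP90, read 11.53, 11.32, 10.86 and 10.77, a difference of -0.61 ± 0.10 (adjusted p = 0.0655 in limma). Neither gene passed 1.5-fold without the 12 h array or without the 24 h array. HSP90 and its co-chaperones hold steroid receptors ready to bind hormone. Of that machinery Fkbp4 differed by -0.41 on one probe set and by -0.59, just past 1.5-fold, on another. Stip1 differed by -0.42, and all of these were separated. The progesterone receptor Pgr itself read 8.32, 7.94, 8.10 and 8.16 and the estrogen receptor Esr1 8.07, 8.16, 8.19 and 8.25, differences of -0.01 and 0.10.

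**Figure D2:**
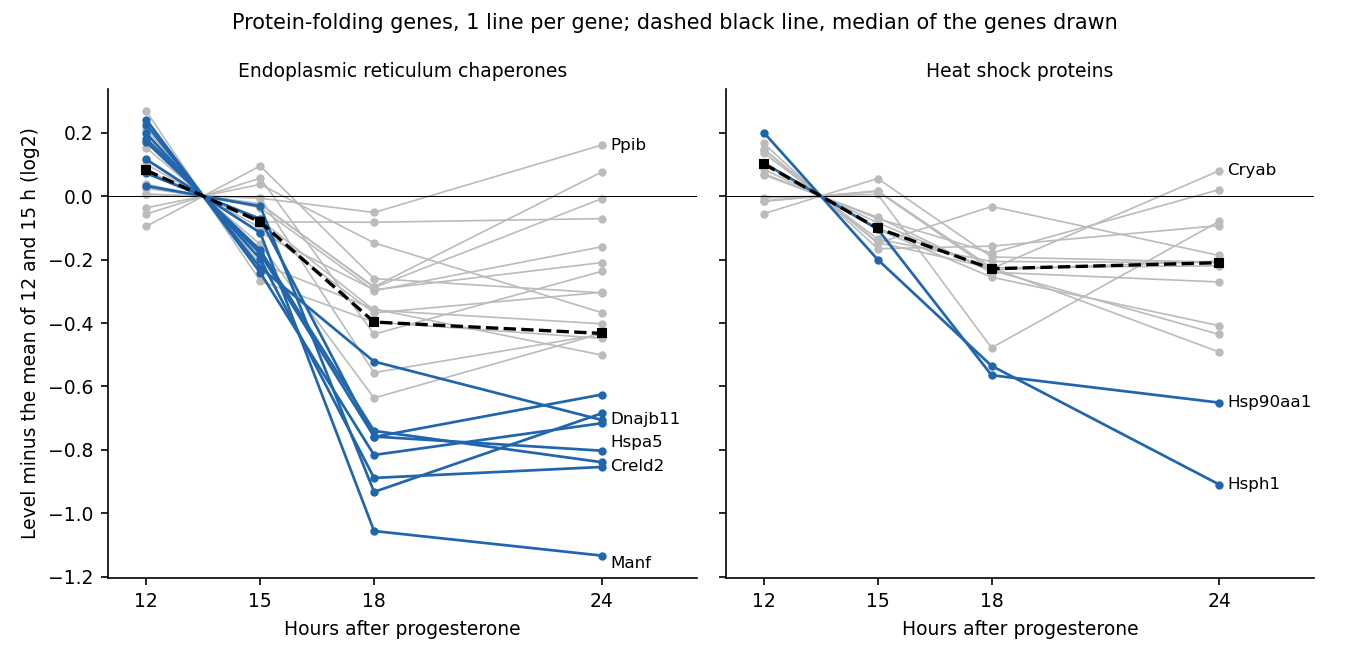
Each line is 1 gene, drawn as its log2 level minus its own mean of 12 and 15 h against hours after progesterone; blue lines are genes at least 1.5-fold lower and separated, grey lines the rest, and the dashed line is the median of the genes drawn. On the left, 8 of 23 genes of the endoplasmic reticulum list are blue and Manf is lowest at 24 h; on the right, Hsph1 and Hsp90aa1 are the 2 blue lines of 15.

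Genes of ribosome production and of polyamine synthesis, which serve cell growth, were lower as a group by small amounts. Of 30 genes analysed of 34 on the array, 23 were separated lower, 1 was separated higher and 3 were at least 1.5-fold lower (1 after either rescaling, 8 without the 18 h array and 2 without the 24 h array). Of all probe sets, 34.4% were separated lower and 12.9% higher. The median of the list was -0.28, and -0.22 with each array centred on its median, where 16 genes were separated lower. Ppan, a factor of large-subunit assembly, read 7.39, 7.34, 6.69 and 6.72 and differed by -0.66 ± 0.10 (adjusted p = 0.0589 in limma). The sides did not overlap, and the late arrays were alike.

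Rrs1, another assembly factor, read 8.63, 8.73, 8.29 and 7.80, and the nucleolar helicase Ddx21 read 8.82, 8.75, 8.35 and 8.00. Their differences were -0.63 ± 0.16 and -0.61 ± 0.13. In both, 24 h was the lowest array and 18 h lay between it and the earlier side, whereas Hspa5, Manf and Creld2 were near their 24 h level by 18 h. Odc1, the rate-limiting enzyme of polyamine synthesis, differed by -0.47 and spermidine synthase Srm by -0.43, both separated. Cad, which starts pyrimidine synthesis, differed by -0.57, and the nucleolar proteins Nop58, Nop56 and Gnl3 by -0.54, -0.52 and -0.56. Myc itself read 8.29, 8.19, 8.01 and 8.17 and differed by -0.15. Nucleolar Ncl and Npm1, which were among the most abundant of the list, differed by -0.16 and -0.00. Polr1c, a subunit shared by RNA polymerases I and III, was the member separated higher, at 0.26. Genes for the finished cytosolic ribosome did not share the pattern: of 23 analysed, 2 were separated lower and 1 higher, with a median of -0.02 (0.05 with each array centred).

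Amino acid supply and one-carbon metabolism had 18 of 23 analysed genes separated lower and 0 higher, against 34.4% and 12.9% of all probe sets. The median was -0.24. Mthfd2, the mitochondrial folate enzyme that supplies formate for purines, read 10.06, 9.84, 8.93 and 8.95. It fell by 1.01 ± 0.11 on the log2 scale, or 2.02-fold (adjusted p = 0.0215 in limma), and the late arrays lay well under the earlier ones. That call was also lost with no filter (adjusted p = 0.299) and after quantile normalization (adjusted p = 0.0649). No other member reached 1.5-fold. Aminoacyl-tRNA synthetases Tars, Iars, Eprs, Gars and Wars differed by -0.45, -0.35, -0.35, -0.33 and -0.28, and the amino acid carriers Slc1a4, Slc7a5 and Slc3a2 by -0.38, -0.29 and -0.25, all separated. Asparagine synthetase Asns differed by -0.25. Serine synthesis was mixed, since Psat1 was separated at -0.23 while Phgdh and Psph were not.

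**Figure D3:**
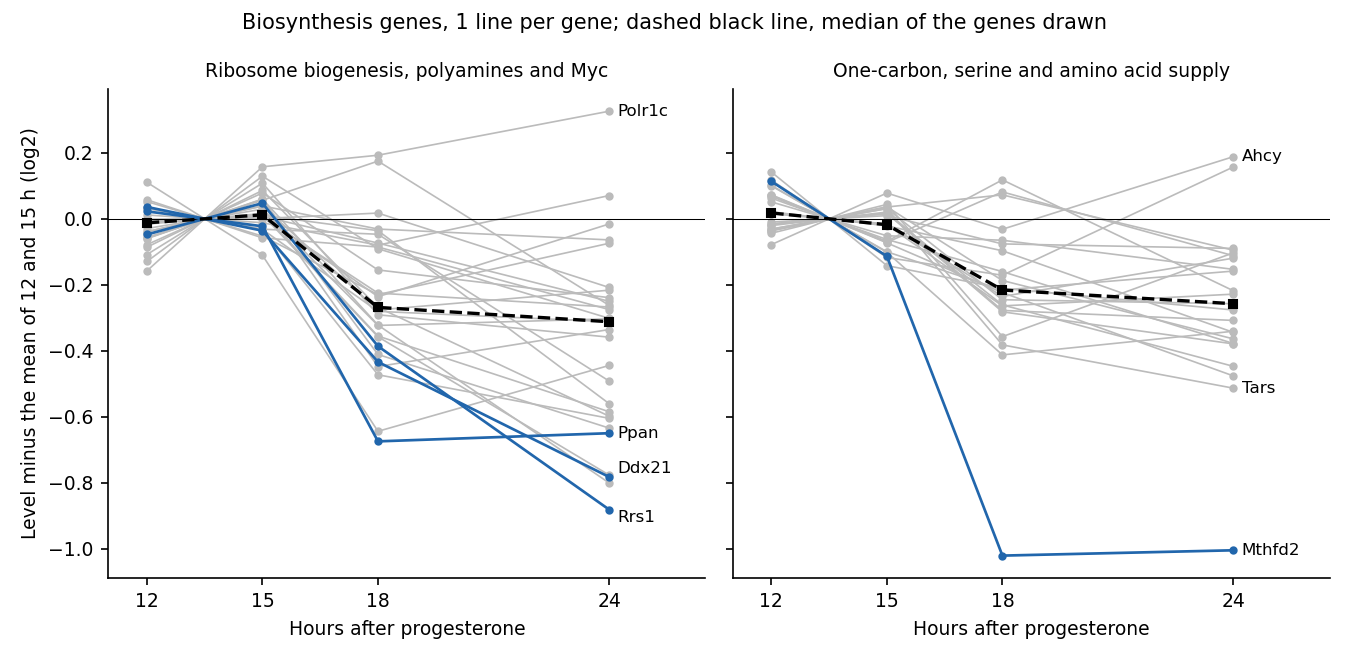
Each line is 1 gene, drawn as its log2 level minus its own mean of 12 and 15 h against hours after progesterone; blue marks at least 1.5-fold lower and separated, grey the rest, and the dashed line is the median of the genes drawn. On the left (29 of 30 genes, Bop1 having no 15 h value), Rrs1, Ppan and Ddx21 are blue and Polr1c ends highest; on the right, Mthfd2 lies far under the other 22 genes at 18 and 24 h.

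The largest declines belonged to genes of other kinds. Ccng1, cyclin G1, a target of p53, read 9.20, 9.11, 8.02 and 8.09. It fell by 1.11 ± 0.10 on the log2 scale, or 2.15-fold (adjusted p = 0.0215 in limma; 0.152 with no filter and 0.0649 after quantile normalization). Each side was tight and the step lay between 15 and 18 h. The other call was a probe set unnamed here, which read 7.95, 7.85, 6.88 and the floor of 6.59, so that its decrease is a lower limit; its call was lost with no filter, after quantile normalization and with a floor at the 60th percentile.

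Septin4, a septin with a variant that promotes apoptosis, read 8.63, 8.61, 7.51 and 6.62, and the mitochondrial creatine kinase Ckmt1 read 9.03, 8.24, 7.22 and 6.95. Both differed by -1.56, 2.95-fold and 2.94-fold, and missed the threshold (adjusted p = 0.0601 and 0.0574 in limma). Their values were spread out within a side, for Septin4 the late one and for Ckmt1 the earlier one. Lmo7 read 9.82, 9.62, 8.97 and 8.70, and Cdo1, which breaks down cysteine, 10.50, 10.39, 9.71 and 9.67. Their differences were -0.88 and -0.76, with adjusted p of 0.0574 and 0.0542 in limma.

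Known progesterone targets separated about as often as all probe sets did. Of 33 analysed of 37, 14 were separated lower and 4 higher, near the 34.4% and 12.9% of all probe sets, 2 lower and 1 higher by at least 1.5-fold, with a median of -0.10. Sgk1, a kinase that controls sodium channels, read 9.68, 9.12, 8.14 and 8.69. It was lowest at 18 h and higher again at 24 h, and the sides did not overlap (-0.98 ± 0.21, adjusted p = 0.113 in limma). Indian hedgehog (Ihh), the epithelial signal to the stroma, read 9.38, 9.10, 8.56 and 8.73, a difference of -0.59 ± 0.13 (adjusted p = 0.107 in limma). Its receptor Ptch1, known from the stroma, read in the whole uterus 10.70, 10.93, 10.91 and 10.52 and was not separated.

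Other targets with lower late values were the transcription factor Zbtb16 (-0.51), the sialic acid enzyme Npl (-0.43), Cebpb (-0.39), the endocytic receptor Lrp2 (-0.38), Gata2 and the histamine-forming enzyme Hdc (-0.35 each), and all were separated. Several were lowest at 18 h and partly back at 24 h, among them Zbtb16 (8.80 and 9.09), Sox17 (11.06 and 11.40) and Fkbp5 (8.64 and 9.17). Hoxa11, Gas1, Nr2f2 and Stat3 differed by -0.05 to 0.02 and were not separated. Follistatin (Fst), which binds activins, read 7.23, 7.14, 7.09 and 8.07, so it was high on the 24 h array alone.

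Enzymes of lipid mediators held members past 1.5-fold in both directions. Alox15, a lipoxygenase, read 7.49, 7.58, 8.11 and 8.78, higher at each time, with a difference of 0.91 ± 0.19 (adjusted p = 0.108 in limma). Pla2g10, a secreted phospholipase, read 10.41, 10.42, 9.70 and 9.75, and Hpgd, which inactivates prostaglandins, read 8.45, 8.46, 7.77 and 7.78. These were nearly equal within each side, with differences of -0.70 ± 0.09 and -0.68 ± 0.10 (adjusted p = 0.0574 in limma for each). Of 17 analysed genes of this list, 6 were separated lower, near the 34.4% of all probe sets, and 4 higher, against 12.9%. The median was 0.05. Higher members besides Alox15 were Ptgr1 at 0.51 and the prostaglandin E receptor Ptger3 at 0.41.

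Among single genes of other lists, Aldh1a1, which makes retinoic acid, read 8.74, 8.23, 7.80 and 7.71 (-0.73). The aspartic protease Napsa read 8.04, 7.95, 7.08 and 7.31 (-0.80), hexokinase 2 (Hk2) 7.82, 7.49, 7.09 and 6.75 (-0.73), and the sodium pump subunit Atp1b1 9.87, 9.63, 9.16 and 8.90 (-0.72). Their adjusted p in limma ran from 0.0574 for Napsa to 0.115 for Aldh1a1. Inmt, a methyltransferase, was spread widely at 8.71, 7.90, 7.84 and 7.13. Of genes that reached the floor late, Il18r1, the receptor of interleukin 18, was at least 1.91-fold lower, Lcn2, lipocalin 2, at least 1.71-fold, Il16 and Lgalsl at least 1.68-fold and 1.67-fold, and Ggct at least 1.52-fold. Lcn2 read 7.87 at 12 h and 6.87 at 15 h, so it differed within the earlier side too.

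Slc15a2 and Alox15 had the largest differences among named genes higher late and above the floor on all 4 arrays. Slc15a2, a peptide transporter, read 7.23, 7.59, 8.10 and 8.73, the only probe set at least 2-fold higher and separated (2.01-fold, adjusted p = 0.104 in limma). Dmpk, the myotonic dystrophy kinase, read 9.32, 9.56, 10.15 and 10.40 (0.84 ± 0.13, adjusted p = 0.0589 in limma). Both were higher at each successive time. Gstt1, which conjugates glutathione, read 7.99, 8.23, 8.61 and 9.13 (0.76), and Pck2, the mitochondrial PEP carboxykinase, 7.05, 7.22, 7.67 and 8.06 (0.73). In the glutathione and detoxification list, 6 of 26 analysed genes were separated higher, against 12.9% of all probe sets, and 10 lower, near the 34.4% of all. Gsto1 and Cryz differed by 0.52 and 0.56, while the abundant Gstm2 and Gstm3 differed by -0.27 and -0.23.

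Further genes at least 1.5-fold higher were the cholesterol transporter Npc1 (0.65), the phospholipid enzyme Chpt1 (0.72), Itm2a (0.70), Nsg2 (0.65) and AU021092 (0.67). Of genes at the floor on an earlier array, Ctsf was at least 1.44-fold higher, Heph at least 1.39-fold, Ret at least 1.29-fold and Ifnar2 at least 1.29-fold, the last with another probe set separated lower. The erythropoietin receptor Epor read 7.28, 6.76, 7.83 and 7.65, so its gain was largest from 15 to 18 h. Gm1673 differed by 0.86 on one probe set and read 9.97, 10.01, 10.05 and 10.14 on a brighter one, so its probe sets disagree in size. S100g, Gap43 and Basp1 were past 1.5-fold on the values present and could not be called separated, because the late side held 1 array. They are named after their values were seen. S100g, the calcium-binding protein calbindin-D9k, read 8.99, 9.72 and 10.22 at 12, 15 and 18 h and had no value at 24 h, and its other probe set read the floor of 6.59, then 6.89 and 7.68. Gap43 read 7.85, 8.22 and 8.92 at those times. Basp1 read 8.29 at 12 h and 9.08 at 18 h, with no value at 15 and 24 h.

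Collagens and the matrix around them were higher late by small amounts. Of 22 genes for collagens and their enzymes analysed of 26, 11 were separated higher and 3 lower, against 12.9% and 34.4% of all probe sets. Of the 11, 2 were higher by at least 1.5-fold. The median was 0.13, against -0.05 for all probe sets. Without the 12 h array 0 collagen genes passed 1.5-fold, and without the 24 h array 1 did. Of 28 matricellular proteins and proteoglycans analysed of 38, 13 were separated higher and 4 lower, against the same shares of all probe sets, with a median of 0.11. The number of the latter list past 1.5-fold was 1 as deposited, 5 after either rescaling, 0 without the 12 h or the 24 h array and 6 without the 15 h or the 18 h array.

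Col1a2, a chain of the main fibrillar collagen, read 10.45, 10.86, 11.27 and 11.44, higher at each time (0.70 ± 0.14, adjusted p = 0.0992 in limma). Its other probe set read 8.54, 8.34, 8.27 and 8.38 and was not separated, so the gene's probe sets disagree. Its partner chain Col1a1 read 11.31, 11.41, 11.67 and 11.85 (0.39). Col14a1, which sits on fibrils, read 7.65, 7.79, 8.26 and 8.40 (0.61 ± 0.11, adjusted p = 0.0898 in limma). Col3a1 differed by 0.73 on a dim probe set and by 0.25 and 0.40 on 2 others, all separated. The basement membrane collagens Col4a1 and Col4a2 differed by 0.26 and 0.17, and Col6a1, Col6a2 and Col6a3 by 0.18, 0.33 and 0.28, all separated.

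Not all enzymes of collagen followed. P4ha2, a prolyl hydroxylase, read 8.63, 8.36, 7.93 and 8.13 and was separated lower at -0.47, while the collagen chaperone Serpinh1 differed by -0.01. Among proteoglycans, lumican (Lum) read 10.08, 10.52, 10.77 and 11.01 and biglycan (Bgn) 10.03, 10.26, 10.68 and 10.74, with differences of 0.59 and 0.57. Decorin (Dcn), the brightest of the list, read 12.41, 12.22, 12.31 and 12.29 and was not separated. Periostin (Postn) and Sparc differed by 0.53 each, dermatopontin (Dpt) by 0.51, versican (Vcan) by 0.49 and fibronectin (Fn1) by 0.41. Ccn4 and Ltbp1 were among the 4 separated lower, at -0.39 and -0.27. Col11a1 and Matn4, also separated lower, passed the filter only through the earlier arrays, as did Lcn2 among the epithelial markers.

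**Figure D4:**
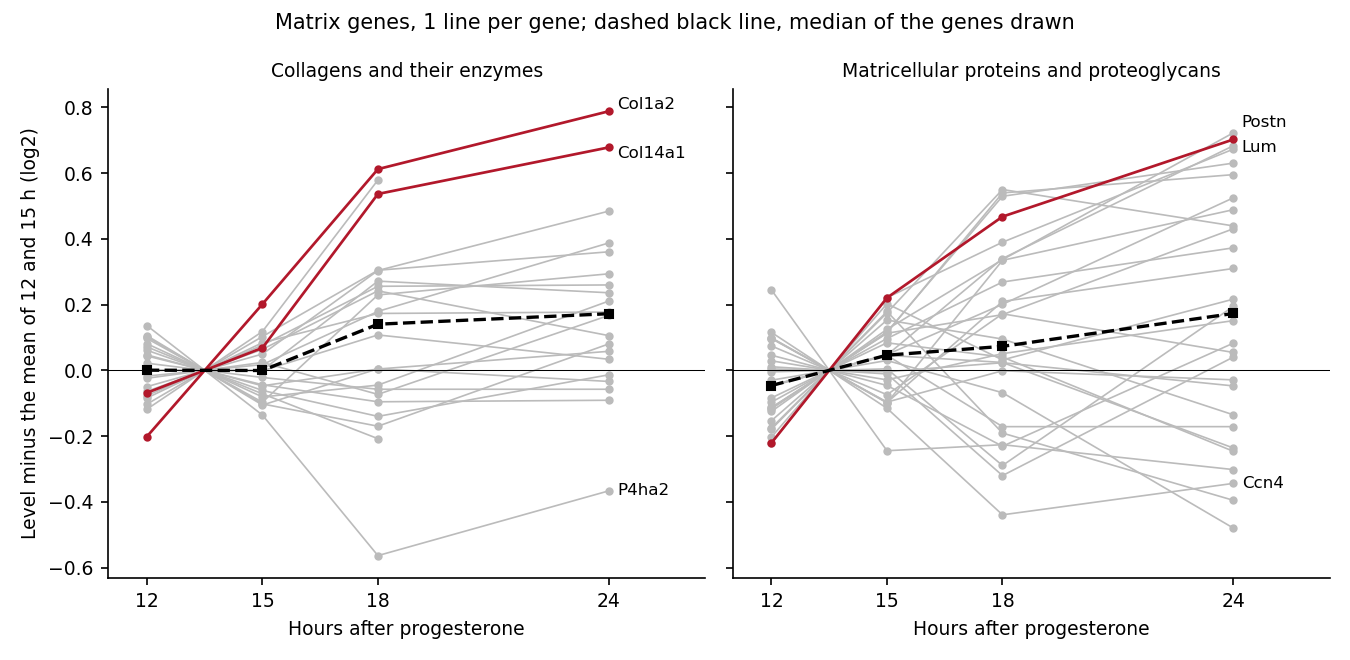
Each line is 1 gene, drawn as its log2 level minus its own mean of 12 and 15 h against hours after progesterone; red marks at least 1.5-fold higher and separated, grey the rest, and the dashed line is the median of the genes drawn. Col1a2 and Col14a1 are red among the collagens and Lum among the proteoglycans; lines that end at 18 h have no value at 24 h.

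Of 17 genes of smooth muscle contraction analysed, 11 were separated higher and 0 lower, against 12.9% and 34.4% of all probe sets. The median of the list was 0.20. Dmpk was the member past 1.5-fold. Myosin heavy chain Myh11 read 11.36, 11.51, 11.78 and 11.62, calponin Cnn1 11.09, 11.33, 11.42 and 11.39, and Tagln 11.98, 11.99, 12.21 and 12.19. Smooth muscle actin Acta2 read 12.32, 12.18, 12.40 and 12.27 and was not separated. Csrp1 and Smtn differed by 0.27 and 0.22.

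Markers of stroma and smooth muscle moved with these groups. Of the 15 stroma markers analysed, 11 were separated higher and 1 lower, against 12.9% and 34.4% of all probe sets. Their median was 0.25. Their mean log2 levels were 10.24, 10.36, 10.51 and 10.63, in the order of time. Of 8 smooth muscle markers 6 were separated higher and 0 lower, against the same shares, with mean levels of 10.66, 10.71, 10.87 and 10.82. These lists share collagens and contraction genes with the groups above. Of 17 epithelial markers 7 were separated lower and 2 higher, not far from the 34.4% and 12.9% of all probe sets. Their median was -0.07 (-0.02 after quantile normalization), against -0.05 for all probe sets, and their mean levels were 8.70, 8.67, 8.50 and 8.64. Among them Cldn7 differed by -0.45 and Cdh1 by -0.27, while Krt8, Krt18 and Krt19 were not separated, at -0.11, -0.07 and -0.05. In RNA of a whole organ, more cells of a type and more RNA per cell cannot be told apart, and the part of these markers in the results was not tested. The defining markers Krt8 and Epcam of epithelium, Col1a1 and Dcn of stroma, and Acta2 and Myh11 of muscle were above the floor on all 4 arrays.

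Blood, fat and immune markers varied in other ways. The 3 erythroid genes had mean levels of 8.62, 8.72, 8.30 and 8.55, lowest at 18 h. The 7 adipocyte genes had mean levels of 8.85, 8.10, 8.59 and 8.35, with the adipocyte hormone Adipoq at 8.45, 6.89, 7.70 and 7.22, so they differed within the sides as much as between them. The 11 macrophage and dendritic markers had a median of 0.06 and the 9 endothelial ones 0.06, and members of both lists were separated in both directions. In the macrophage list Lyz2 differed by -0.45 and C1qb by 0.42 on one probe set, while the other probe set of C1qb was separated lower.

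Cell-cycle genes gave small late differences at the mitotic end. Of 26 mitotic genes on the array, 12 passed the filter on low values, with a median of 0.08. Of these, 6 were separated higher and 1 lower, against 12.9% and 34.4% of all probe sets. Cdk1, the mitotic kinase, read 6.69, 7.05, 7.31 and 7.71, higher at each time (0.64 ± 0.16, adjusted p = 0.138 in limma). Cdc20 read 7.33, 7.50, 7.68 and 8.01 (0.43). Aurkb was at the floor at 12 and 15 h and read 6.76 and 7.29 later, at least 1.34-fold higher; it passed the filter only through the late arrays, so that its place among the 6 was set by the filter. Cyclin B2 (Ccnb2) read 7.29, 7.13, 7.28 and 8.02, so it was high at 24 h alone, and stathmin (Stmn1), which destabilizes microtubules, read 8.13, 8.12, 8.53 and 9.31 (0.80).

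Not every mitotic gene shared this. Foxm1, Plk1 and Ccna2 differed by -0.07, 0.05 and 0.07. Genes of the G1/S step and of DNA replication had a median of -0.02 (0.04 after either rescaling), with 9 of 25 separated lower and 4 higher, near the 34.4% and 12.9% of all probe sets. Pcna read 9.71, 9.82, 9.34 and 9.49 (-0.35) and Ccnd2 8.64, 8.43, 8.27 and 8.14 (-0.33).

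Interferon-stimulated genes were higher by small amounts on both late arrays. Of 17 analysed, 11 were separated higher and 1 lower, none by 1.5-fold, against 12.9% and 34.4% of all probe sets separated. The median was 0.17. Ifit2, among the 11, passed the filter only through the late arrays. The proteasome subunit Psmb9 read 6.82, 7.15, 7.29 and 7.66 (0.49), Usp18 7.11, 6.69, 7.22 and 7.35 (0.39), and Isg15 7.86, 7.84, 8.33 and 8.08 (0.36). The constitutive proteasome had 16 of 30 genes separated lower and 1 higher, against 34.4% and 12.9% of all probe sets. Its median was -0.15, against -0.05 for all probe sets.

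**Figure D5:**
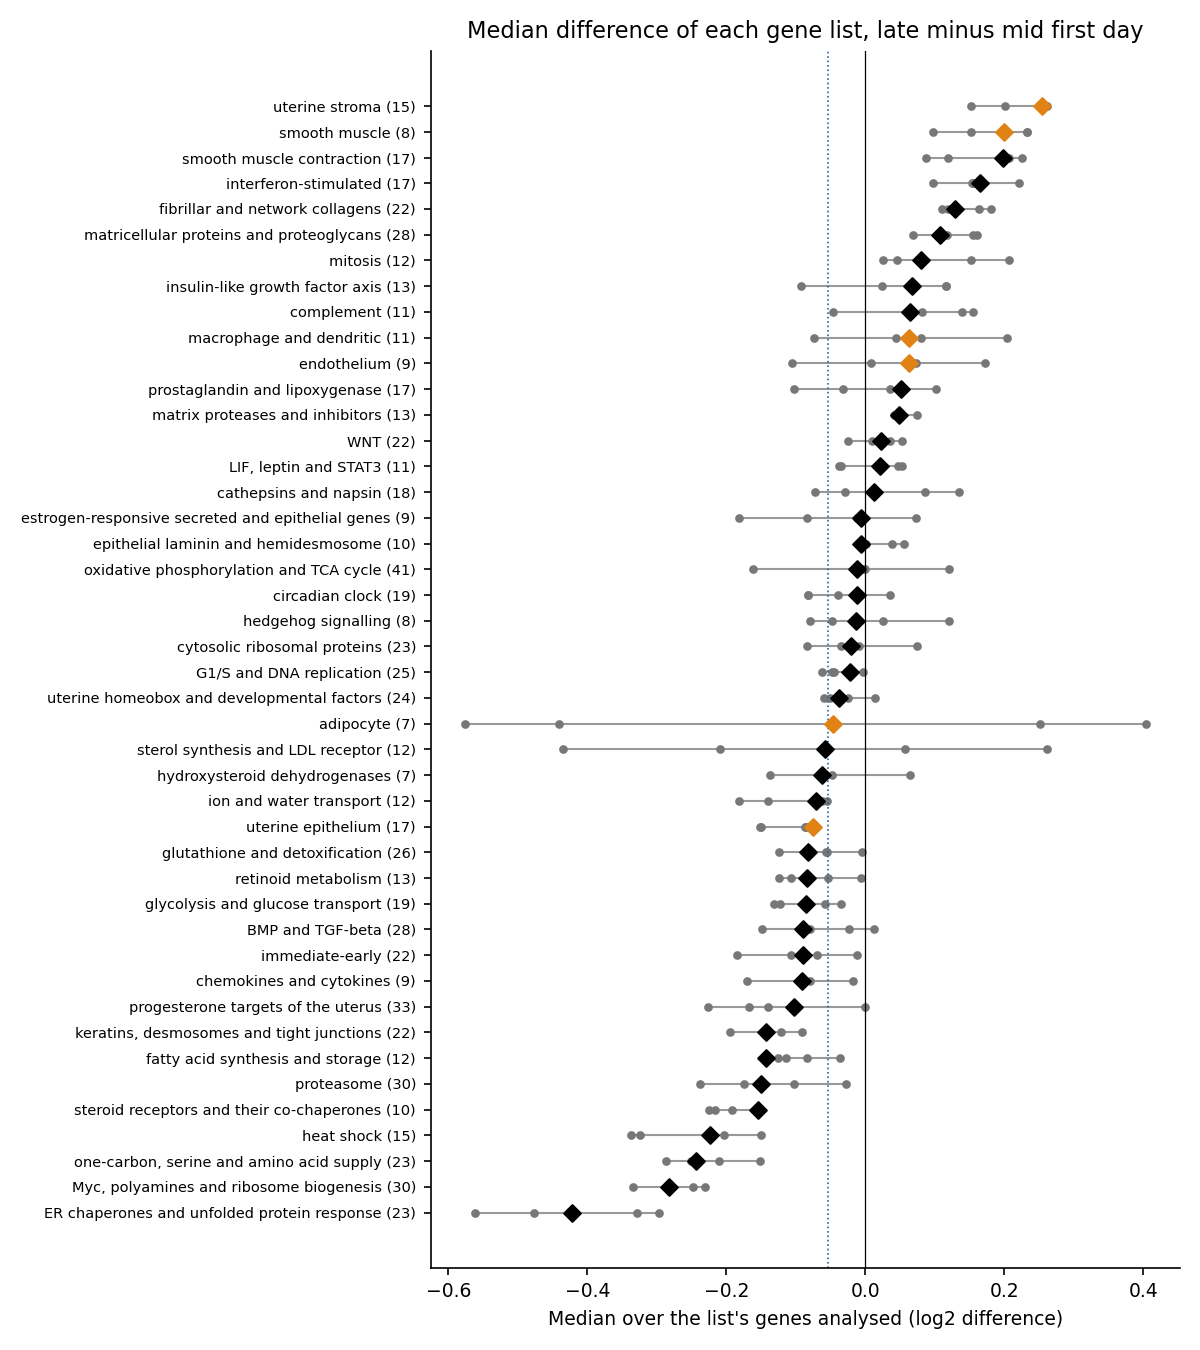
For each list with at least 5 genes analysed (number in brackets), the diamond is the median log2 difference between the means of 18 and 24 h and of 12 and 15 h, black for pathways and orange for cell-type markers; grey points are the medians for each of the 4 pairs of arrays. The dotted line is the median of all probe sets, -0.05; endoplasmic reticulum chaperones lie lowest at -0.42 and stroma markers highest at 0.25, and in both lists all 4 pairs lie on the same side of 0.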

How the data were processed

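The authors deposited 1 table of log2 expression values per probe set. Base 2 follows from the values themselves. How probes were summarised and scaled was not given in the sources used here. RNA preparation, labelling and hybridization followed the array maker's protocol, per the labels. Of 12487 probe sets, 65 controls were left out, values under the 40th percentile of the table (6.59) were set to it, and the 7575 above it on at least 2 of the 4 arrays were analysed. A difference from a floored value is a limit, and floored values narrow the spread. Names came from the platform annotation: of 12422 probe sets, 10833 had 1 symbol, 396 several and 1193 none, and 10817 of those with 1 matched RefSeq. A gene's value is that of its brightest probe set in a list, and of the probe set with the largest difference among the largest changes. limma 3.58.1 in R 4.3.3 (lmFit, eBayes with an intensity trend) compared 2 arrays with 2, with Benjamini-Hochberg adjustment; "rose" and "fell" stand for adjusted p below 0.05. The script was tested on simulated data. With 1 pooled RNA per time, p-values measure only the spread between these arrays, and the number of arrays limits the precision. The rule for named genes took the 15 largest separated differences each way, the 5 largest each way at the floor, every call, and in each of 50 lists the members past 1.5-fold, or else the 2 largest each way. The text prints the genes of this rule for the lists it describes, and other members of those lists. The comparison and lists were chosen with earlier results of these data known. Alternatives changed the floor, filter, scaling, arrays, fit and fold.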

Additional observations from a re-analysis of the deposited data

How the results depend on the processing

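Counts of probe sets that rose and fell in limma were 0 and 4. They were 8 fallen with a floor at the 60th percentile, 7 and 44 with no floor, 1 fallen with no filter on low values (not among the 4), 4 and 33 above the floor on all 4 arrays, 0 fallen after quantile normalization, 26 and 32 with arrays centred on their medians, 3 and 34 with robust eBayes, and 27 and 14 with hours as a number. Leaving out 1 array gave 1 to 185 risen and 6 to 308 fallen; each such fit has 1 residual degree of freedom and assumes that the lone array varies like the others, and the same 4 probe sets were called in each. Probe sets higher and lower by 1.5-fold, 23 and 61, became 42 higher with a floor at the 20th percentile (91 lower), 15 and 37 at the 60th, 36 and 40 after quantile normalization and 37 and 39 with centred arrays. They were 11 to 67 and 53 to 92 with 1 array left out, 1 and 6 at 2-fold, 161 and 475 at a threshold of 0.32 on the log2 scale, and 1 and 20 when each of the 4 pairs had to reach 1.5-fold. A reversal was counted only for named values called or at least 1.5-fold apart, and for lists with a median at least 0.2 from that of all. Under that rule, 0 of 1731 alternatives for 165 named values reversed, and 9 lost a call. Of 528 for the medians of 44 lists, 0 reversed and 40 moved. Smaller values could change sign uncounted, as the medians of cytosolic ribosomal proteins, G1/S genes and sterol synthesis did after rescaling. Counts of list members under each alternative were added after seeing the data. No paired analysis was possible because each time has 1 array.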

Other observations

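Of 19 clock genes analysed, 9 were separated lower and 4 higher, none by 1.5-fold, against 34.4% and 12.9% of all probe sets. Others were high at 24 h alone. Dbp, a clock output factor, was at the floor at 12 and 18 h, read 6.76 at 15 h and 7.86 at 24 h, and Nr1d2, a repressor of the clock, read 8.06, 8.05, 7.82 and 8.85 at 12, 15, 18 and 24 h. Cry1 and Bhlhe40 were separated lower, at -0.49 and -0.50.

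Sterol synthesis genes had 0 of 12 analysed separated in either direction, against 34.4% of all probe sets lower and 12.9% higher. Their median was -0.06 (0.01 after either rescaling), while their median difference from 12 to 15 h was 0.49, within the earlier side. Hmgcs1, an early enzyme of the pathway, read 8.40, 8.88, 8.65 and 8.07, and Cyp51 read 7.36, 7.91, 7.59 and 7.26.

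Genes of small ribosomal subunit assembly outside the fixed lists, named after their values were seen, were at least 1.5-fold lower: Bysl differed by -0.66, Pno1 by -0.66 and Ltv1 by -0.63. Bysl read 8.62, 8.62, 8.27 and 7.64, and Pno1 8.56, 8.51, 7.95 and 7.81. Also outside the lists, Rpn1, a subunit of the enzyme that adds sugars in the endoplasmic reticulum, differed by -0.67. The control probe set for the 3′ end of the transferrin receptor was at the floor at 24 h, so its difference of -0.77 is a limit. Other probe sets of that gene (Tfrc) differed by -0.34 and -0.16.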
